A study of Mus musculus with 19 samples.

Results

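Neurotensin and galanin are short secreted peptides, and the 7 genes described here are those of both peptides and of the proteins that bind them: Nts, Ntsr1, Ntsr2, Sort1, Gal, Galr1 and Galr2. They were chosen by gene name and are 7 of the 52636 mouse genes in the count table, each with 1 row. They were read in single cells of the lateral hypothalamic area (LHA) above the fornix, from 7 mice, all males aged 6 to 8 weeks that carried Agrp-IRES-Cre and Ai9. In this cross AGRP neurons make the red protein tdTomato, their axons served to find the borders of the area, and cell bodies without fluorescence were picked by hand into 19 plates of 96 wells. All plates share this genotype and no treatment is given, so every comparison is between classes of cells inside the plates, and a plate counts as 1 replicate. Of 1612 wells labelled LHA, 1534 had at least 1000 detected genes and were kept.

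The kept cells were put into classes by fixed limits. The GABA class held 327 cells with at least 5 unique molecular identifiers (UMIs) of Gad1 and Gad2 together, the GABA-making enzymes, and under 1% of UMIs in Hcrt and in Pmch. The remaining class held 71 cells with neither peptide at 1% and fewer Gad UMIs. The Pmch class held 68 cells with at least 1% of UMIs in Pmch, the gene of melanin-concentrating hormone. The Hcrt class held 1065 cells with at least 1% of UMIs in Hcrt, the gene of the orexin peptides. A further 3 cells passed both peptide limits and entered no comparison.

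Neurotensin is cut from its precursor by prohormone convertases and signals in the brain mainly through Ntsr1, a receptor coupled to Gq. Ntsr2 is a lower-affinity receptor known in rodent brain mostly from astrocytes, and Sort1 encodes sortilin, a sorting receptor that binds neurotensin. Galanin acts on Galr1, which couples to Gi, and on Galr2, which can couple to Gq. In the mouse lateral hypothalamus, neurons with neurotensin are known as GABAergic cells tied to feeding, and some of them also make galanin.

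The promoters of Nts and Gal are shown because RNA of both genes was found in the same cells. Of the 7 genes, 5 had a promoter in the RefSeq table used (GRCm38.p6), which covers 250 bases before to 50 bases after the annotated start. The Nts window is chr10:102490369-102490668 and the Gal window is chr19:3414495-3414794, both on the minus strand and written 5′ to 3′. Capitals mark the letters of the motifs found.
Nts: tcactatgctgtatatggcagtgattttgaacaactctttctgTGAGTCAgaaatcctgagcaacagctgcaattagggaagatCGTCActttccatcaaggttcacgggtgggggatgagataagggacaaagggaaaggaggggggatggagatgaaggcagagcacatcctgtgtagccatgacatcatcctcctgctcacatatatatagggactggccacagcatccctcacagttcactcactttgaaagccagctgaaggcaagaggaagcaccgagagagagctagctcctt
Gal: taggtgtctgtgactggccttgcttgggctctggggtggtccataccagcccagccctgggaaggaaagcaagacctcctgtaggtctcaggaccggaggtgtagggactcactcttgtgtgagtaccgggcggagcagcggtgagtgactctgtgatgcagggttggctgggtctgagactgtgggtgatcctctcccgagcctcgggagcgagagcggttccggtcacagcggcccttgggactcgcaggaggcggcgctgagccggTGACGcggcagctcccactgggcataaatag

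The motifs searched, on both strands, were the TATA box, the full cAMP response element, its core and the AP-1 site. The TATA box was read as TATAAA, which was in neither window and in 13.6% of all 32851 promoters of the table. The full cAMP response element was read as TGACGTCA, which was in neither window and in 1.79% of the promoters. The AP-1 site was read as TGANTCA, which began 207 bases before the start of Nts, was not in the Gal window, and was in 7.81% of the promoters. The core of the cAMP response element was read as TGACG, which the full element also contains. It lay 166 bases before the start of Nts on the other strand and 20 bases after the start of Gal, and in 20.8% of the promoters.

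By the GENCODE M21 annotation of GRCm38, Nts lies on chromosome 10 from 102481756 to 102490486 and Gal on chromosome 19 from 3409915 to 3414544, both on the minus strand. Ntsr1 lies on chromosome 2 from 180499976 to 180544980, Ntsr2 on chromosome 12 from 16653382 to 16660227 and Sort1 on chromosome 3 from 108284082 to 108361511, all on the plus strand. Galr1 lies on chromosome 18 from 82392380 to 82406777 on the minus strand and Galr2 on chromosome 11 from 116280939 to 116283938 on the plus strand. All 7 are protein-coding and counted per gene. Sort1 shares its span with the predicted genes Gm12523 (minus strand) and Gm43099 (plus strand), and the use of strand in counting is not given in the sources used here, so its value is uncertain to that extent.

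A plate held 44 to 86 kept cells and 1835641 to 5067927 UMIs in them. The median cell had 24486 UMIs in the GABA class, 24969 in the remaining class, 59063 in the Pmch class and 45722 in the Hcrt class. Slc32a1, the vesicular GABA transporter, which the class limits did not use, had a UMI in 62.4% of GABA class cells and 2.44% of Hcrt class cells. Slc17a6, a vesicular glutamate transporter, had one in 6.73% and 88.5% of them. Hcrt RNA was found in every cell, at a median of 0.184% of UMIs in the GABA class and 13.5% in the Hcrt class. Plates with the same Q prefix in their title (5, 5, 5 and 4 plates) share all 96 well barcodes. In the spike-in and empty wells with under 1000 genes, which had a median of 169 UMIs, neither Nts nor Gal went above 1 UMI.

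Nts was highest in the GABA class. Summed over the cells of a plate it ran from 1446 to 7676 CPM (UMIs scaled to an equal library total) with a median of 3404 in the GABA class, against 58.1 to 320.0 CPM with a median of 114.4 in the Hcrt class of the same 16 plates. Every GABA class plate lay above every Hcrt class plate. The mean was 3561 ± 1482 CPM in the GABA class and 131 ± 72.6 CPM in the Hcrt class (SD, n = 16 plates), a log2 fold change of 4.28 ± 0.23 (standard error; adjusted p = 1.73e-10). Adjusted p-values throughout are from edgeR's quasi-likelihood test with plate as a block and Benjamini-Hochberg adjustment over all genes of the comparison, with a threshold of 0.05. Nothing ties plates to mice in the sources used here, and p-values may be too small where plates share a mouse.

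Gal was higher in the same class. It ran from 856 to 2933 CPM with a median of 2115 in the GABA class, against 52.7 to 147 CPM with a median of 99.3 in the Hcrt class. Again the plates of the classes did not overlap. The mean was 1972 ± 553 CPM in the GABA class and 98.4 ± 26.9 CPM in the Hcrt class, a log2 fold change of 3.81 ± 0.20 (adjusted p = 1.08e-10). In this comparison 29.1% of 16628 genes were called, 10.7% higher and 18.4% lower. Read against those shares, of the 7 members 4 were called higher (Nts, Gal, Galr1, Sort1), Ntsr1 was called lower, Ntsr2 was not called, and Galr2 had too few counts to be tested. The median log2 change of all genes was -0.13 here and 0.14 in the DESeq2 fit.

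**Figure D1:**
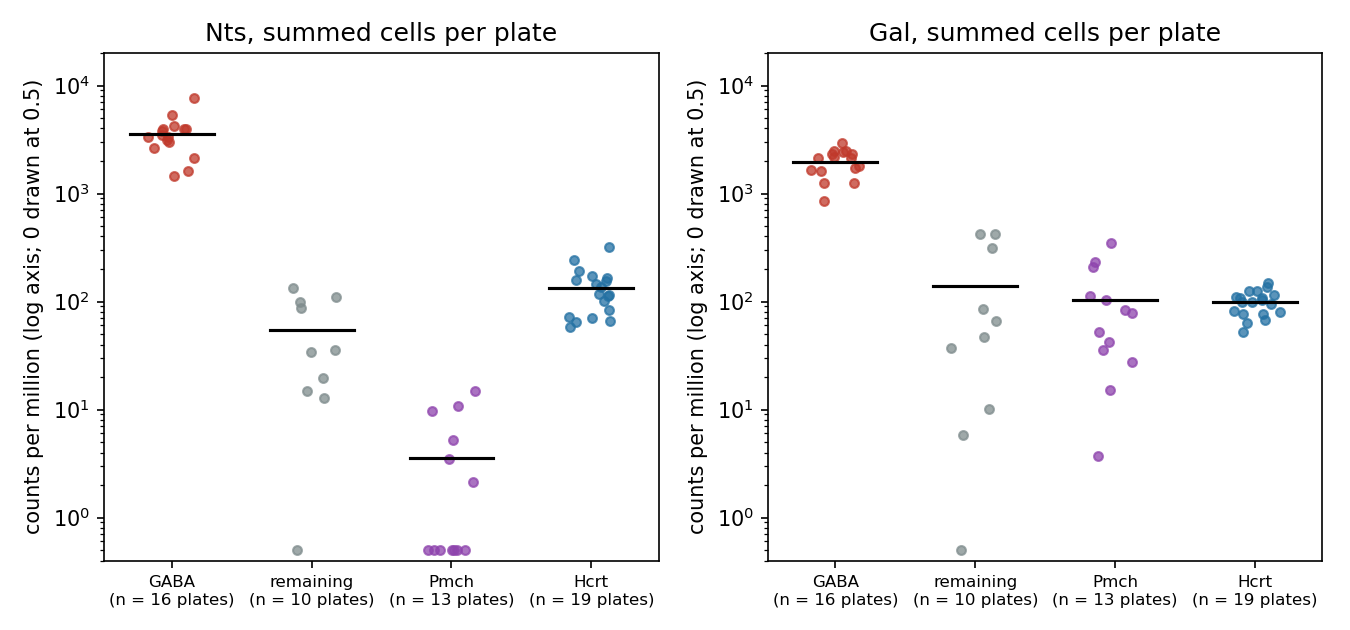
Nts (left) and Gal (right) in CPM on a log axis, where each point is the summed cells of a class on 1 plate, the lines are means and plates at 0 are drawn at 0.5. The 16 GABA class plates lie above all plates of the remaining, Pmch and Hcrt classes for both genes, and Nts is at 0 on 7 of 13 Pmch class plates.

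Across all 4 classes, the order of mean Nts levels was GABA (3561 ± 1482 CPM, 16 plates), Hcrt (134 ± 67.4 CPM, 19 plates), remaining (54.5 ± 47.8 CPM, 10 plates) and Pmch (3.56 ± 5.10 CPM, 13 plates). For Gal it was GABA (1972 ± 553 CPM), remaining (140 ± 173 CPM), Pmch (103.1 ± 100.7 CPM) and Hcrt (98.3 ± 25.5 CPM). For both genes only the step from the GABA class to the next class had no overlap between plates.

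Against the remaining class, in which Slc17a6 had a UMI in 69.0% of cells, the same peptide genes were higher. Not all cells of that class had a clear neuronal profile. In 4 of its 71 cells the summed oligodendrocyte markers reached or passed the summed neuronal markers, against 1 of 327 GABA class cells. A gate on UMIs, mitochondrial share, neuronal markers and markers of other cell types was failed by 9 of the 71 cells, against 2 GABA class cells. Over 10 plates Nts ran from 1446 to 7676 CPM with a median of 3171 in the GABA class, against 0 to 134 CPM with a median of 34.6 in the remaining class. Gal ran from 1248 to 2467 CPM with a median of 2062 in the GABA class, against 0 to 424 CPM with a median of 56.1 in the remaining class. Neither pair of ranges overlapped. The log2 fold change was 6.21 ± 0.54 for Nts (adjusted p = 5.29e-05) and 4.83 ± 0.72 for Gal (adjusted p = 0.00985), beside a median of 0.38 over all genes. Here 1.36% of 12909 genes were called, 0.93% higher and 0.434% lower, and Nts and Gal were the 2 called of 5 members tested. Both calls were lost with at least 5 cells per plate and class (adjusted p = 0.129 for Nts and 0.289 for Gal), and that of Gal also with a limit of 20 Gad UMIs (1.38 ± 0.39, adjusted p = 0.178). That limit moves GABA class cells with fewer than 20 Gad UMIs into the remaining class. The remaining class then held 150 cells over 13 plates, against 59 cells over 10 plates in the main fit, so the 2 fits compare different cells.

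Most GABA class cells held at least 1 of the peptides at a high level. With 200 CPM as the limit for a high cell, 165 of 327 cells were high in both genes, 33 in Nts alone, 76 in Gal alone and 53 in neither. Nts was high in 60.6% of GABA class cells (exact 95% interval 55.0 to 65.9) and 13.3% of Hcrt class cells (11.3 to 15.5). Gal was high in 73.7% of GABA class cells (68.6 to 78.4) and 16.7% of Hcrt class cells (14.5 to 19.1). Such intervals cover counting error only. For Nts the GABA class had 100 cells with no UMI, 14 cells between 50 and 200 CPM and 81 at or above 5000 CPM. For Gal it had 62 with no UMI, 16 between the limits and 35 at or above 5000 CPM. The highest cells reached 11229 CPM of Nts and 16024 CPM of Gal.

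By the CPM limits, cells with much Nts were more often high in Gal in the GABA class and less often in the Hcrt class. In the GABA class 83.3% of the 198 Nts-high cells were Gal-high (77.4 to 88.2), against 56.5% of the cells with under 50 CPM of Nts (47.0 to 65.7). By plate the share had a median of 85.8% in Nts-high cells and 56.25% in Nts-low cells, and it was higher in Nts-high cells on 12 of 14 plates. In the Hcrt class 6.34% of the 142 Nts-high cells were Gal-high (2.94 to 11.7), against 18.6% of the 882 Nts-low cells (16.1 to 21.3), and the share was lower in Nts-high cells on 16 of 18 plates. In all, 9 Hcrt class cells were high in both genes. Nts-high cells of the Hcrt class were also deeper. With every cell thinned to an equal number of UMIs, a Gal UMI was found in 32.4% of Nts-high Hcrt class cells (24.8 to 40.8). It was found in 38.9% of Nts-low ones (35.7 to 42.3), and the intervals overlapped. Without thinning the shares were 56.3% and 55.8%. In the GABA class the thinned shares were 85.0% in Nts-high cells (79.1 to 89.7) and 67.3% in Nts-low cells (57.7 to 75.9). Cells of a plate are not replicates, so these shares carry no test.

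**Figure D2:**
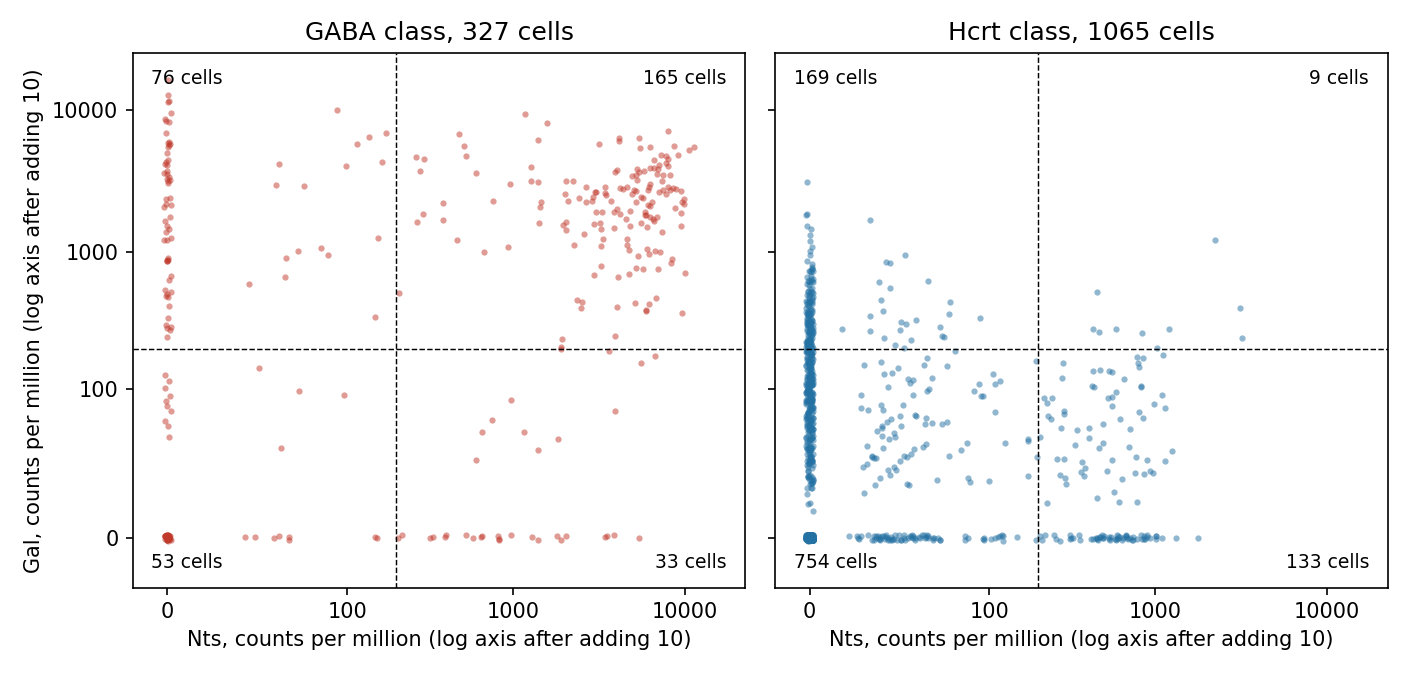
Nts against Gal in single cells of the GABA class (327 cells) and the Hcrt class (1065 cells), in CPM on log axes after adding 10, with dashed lines at 200 CPM and the number of cells in each corner. The corner high in both genes holds 165 GABA class cells and 9 Hcrt class cells.

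Tested on plate sums, Gal was not called between Nts-high and Nts-low cells of the GABA class. It ran from 1291 to 2818 CPM with a median of 2335 in Nts-high cells, against 0 to 3483 CPM with a median of 1629 in Nts-low cells, over 14 plates. The ranges overlapped, and Gal was higher in Nts-high cells on 9 of 14 plates. The means were 2154 ± 505 CPM in Nts-high cells and 1625 ± 991 CPM in Nts-low cells, a log2 fold change of 0.74 ± 0.34 (adjusted p = 0.315) beside a median of 0.16 over all genes.

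With the cells split by Gal instead, Nts was called. It ran from 1919 to 5236 CPM with a median of 4088 in Gal-high cells, against 0 to 1546 CPM with a median of 418 in Gal-low cells, over 12 plates. Here the plates did not overlap. The means were 3829 ± 1125 CPM in Gal-high cells and 510 ± 470 CPM in Gal-low cells, a log2 fold change of 3.32 ± 0.52 (adjusted p = 0.00338) beside a median of 0.34 over all genes. Without the plates of prefix Q7 the size was 3.29 ± 0.76 and the adjusted p 0.131.

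In the Hcrt class Gal was lower in Nts-high cells. It ran from 6.95 to 171 CPM with a median of 64.8 in Nts-high cells, against 60.1 to 163 CPM with a median of 107.3 in Nts-low cells, over 18 plates. The ranges overlapped, but Gal was lower in Nts-high cells on 17 of 18 plates. The means were 61.9 ± 40.7 CPM in Nts-high cells and 108.1 ± 29.2 CPM in Nts-low cells, a log2 fold change of -0.94 ± 0.25 (adjusted p = 0.0226) beside a median of -0.20 over all genes. The call was kept when any single plate was left out (adjusted p 0.00578 to 0.0403) and lost in 5 of 13 other settings, with adjusted p up to 0.132.

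The relation of Gal to Nts differed between the classes. In a test of the difference itself over 13 plates, chosen after the data were seen, the change of Gal with Nts was larger in the GABA class than in the Hcrt class by 1.55 ± 0.43 on the log2 scale (adjusted p = 0.0327). In that test 4.7% of 15972 genes were called. Of these 751 genes 648, Gal among them, had a positive difference and the others a negative one. The direction of Gal was thus that of most called genes. A median over all genes is not given for this test, so the value of 1.55 is measured from 0. In the separate fits that median was 0.16 in the GABA class and -0.20 in the Hcrt class. The receptor genes were not called, with adjusted p of 0.294 for Sort1, 0.339 for Ntsr2, 0.849 for Ntsr1 and 0.971 for Galr1.

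**Figure D3:**
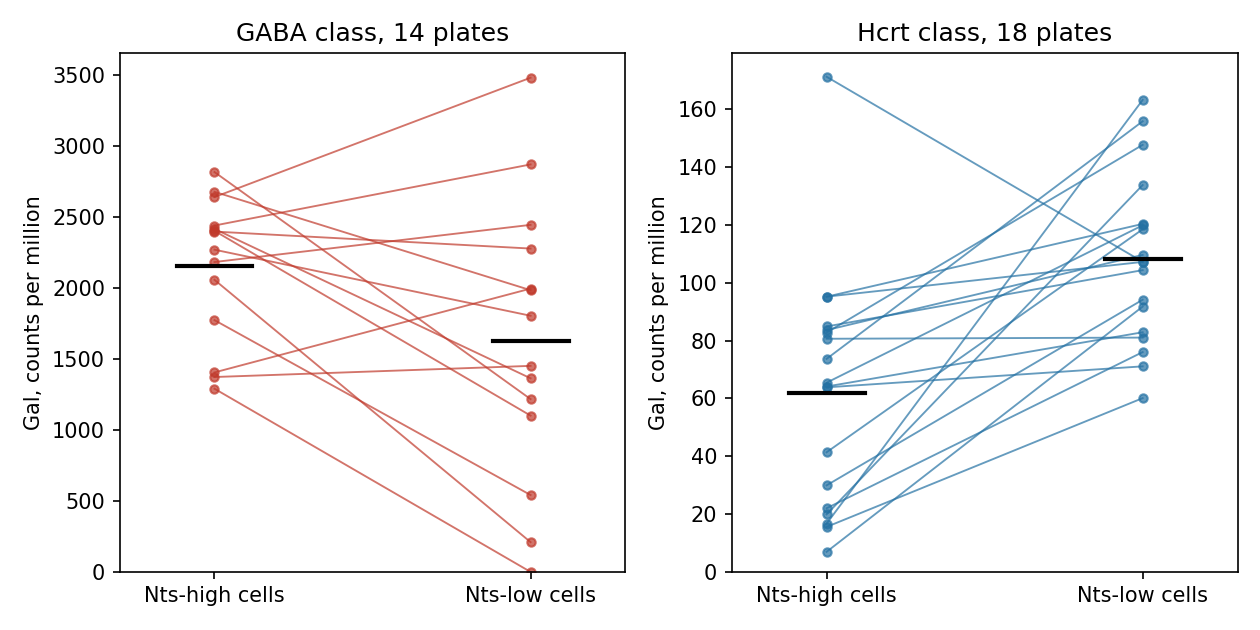
Gal in CPM in Nts-high cells and Nts-low cells of the same plate, joined by a line, in the GABA class (14 plates) and the Hcrt class (18 plates), with means as black bars and a separate scale for each class. Gal is higher in Nts-high cells on 9 of 14 GABA class plates and lower in them on 17 of 18 Hcrt class plates.

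Nts marked a subset of the Hcrt class. Of 1065 cells 739 had no Nts UMI, 882 were under 50 CPM, 41 lay between the limits and 142 were at or above 200 CPM, and these last held 94.9% of the Nts UMIs of the class. All 19 plates had such cells, at 6.45 to 29.7% of the class with a median of 11.5%. The median Nts-high cell had 4041 CPM of Nts in the GABA class and 569 CPM in the Hcrt class. Nts-high cells of the Hcrt class were deeper, with a median of 68506 UMIs, against 41857.5 UMIs in Nts-low cells, and the part of depth in the results was not tested. Hcrt itself had a median of 13.3% of UMIs in Nts-high cells and 13.5% in Nts-low cells.

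GABA genes were higher in the Nts-high Hcrt class cells. Gad2 stood at 66.3 ± 37.9 CPM in Nts-high cells and 11.8 ± 7.24 CPM in Nts-low cells (log2 fold change 2.44 ± 0.26, adjusted p = 7.92e-09). Slc32a1 stood at 3.94 ± 5.98 CPM in Nts-high cells and 0.347 ± 0.402 CPM in Nts-low cells (2.45 ± 0.72, adjusted p = 0.0201), with a UMI in 12 of 142 and 13 of 882 cells. The sum of Gad1, Gad2 and Slc32a1, all 3 detected on both sides, ran from 16.5 to 204 CPM in Nts-high cells and 14.2 to 64.6 CPM in Nts-low cells, and was higher on 15 of 18 plates. In the GABA class the same sum ran from 1114 to 2109 CPM. Wells with more than 1 cell were not searched for, and their part in these values was not tested.

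Of 16204 genes 8.27% were called between these Hcrt class cells, 2.28% higher and 5.99% lower, and of 5 members tested Sort1 was called higher and Gal lower. Among the largest increases under the naming rule were Hs3st4, a heparan sulfate sulfotransferase (5.40 ± 0.47), Col11a1, a collagen (3.29 ± 0.39), Cbln2, a secreted synaptic organiser (2.71 ± 0.14), and Gad2. The largest decreases were Lypd1, which binds nicotinic receptors (-3.65 ± 0.35), Hmcn1, a matrix protein (-3.62 ± 0.37), Pde3a, a phosphodiesterase (-3.54 ± 0.39), Rprm (-3.41 ± 0.41) and the chemokine gene Cxcl14 (-3.30 ± 0.40). Cbln2 stood at 101.2 ± 27.6 CPM in Nts-high cells and 14.9 ± 4.95 CPM in Nts-low cells and was higher on 18 of 18 plates. Over 1055 single Hcrt class cells the genes most like Nts, by Pearson correlation of log2 UMIs thinned to 10000 per cell and centred on the plate, were Cbln2 (0.40), Mgst3 (0.35), Gpr83 (0.33), S100a11 (0.31) and Uchl1 (0.28). Gal had -0.05. The cells share plates and library preparation, and the correlations are a description.

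Among the gene lists, peptide genes went both ways with Nts in the Hcrt class. Of 13 other peptide genes 3 were higher and 3 lower: Adcyap1, the PACAP gene (7.11 ± 7.35 CPM in Nts-high cells and 1.18 ± 1.13 CPM in Nts-low cells), Tac1 (3.47 ± 0.94) and Pth2, the gene of the peptide TIP39 (1.42 ± 0.38), were higher. Pth2 stood at 48.1 ± 39.4 CPM in Nts-high cells and 16.3 ± 10.3 CPM in Nts-low cells. Sst, the somatostatin gene, had 3 UMIs in Nts-high cells, at a ratio of 10.4 in favour of Nts-low cells (3.48 to 51.3). The interval of this and of later such ratios covers counting error of pooled UMIs only, not the spread over cells or plates. Of 10 processing genes Pam, the amidating enzyme, was higher (0.60 ± 0.06) and 5 were lower, Scg3 (-0.57 ± 0.06), Scg2 (-0.45 ± 0.04) and Cpe (-0.22 ± 0.05) among them, beside a median of -0.20 over all genes. With that median taken off, Chga (0.01) and Chgb (0.04) turned sign and Cpe was at -0.02, while the median in the DESeq2 fit was -0.0168. The sortilin relatives Sorcs1 (-2.82 ± 0.37) and Sorl1 (-1.14 ± 0.19) were the 2 lower of 4 tested. Of 8 second-messenger genes 3 were lower, Gnai1 the most (-1.01 ± 0.11). The melanocortin receptor gene Mc3r was the 1 higher of 6 receptors of metabolic signals. Gad2 and Slc32a1 were the 2 higher of 8 GABA genes. Slc17a6 (-0.39 ± 0.10) and Lhx9 (-0.28 ± 0.09) were the 2 lower of 5 identity factors, and none of 7 neurotensin-cleaving peptidases was called.

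Within the GABA class, receptor and peptide genes were among the largest changes with Nts. Of 12577 genes 4.83% were called, 3.61% higher and 1.22% lower, and none of the 4 members tested was called. Acvr1c, an activin-type receptor, had 584 UMIs in Nts-high cells and none in Nts-low cells, at least 102.8-fold higher against 3 counts over the group. Calcr, the calcitonin receptor, had 837 UMIs in Nts-high cells and 2 in Nts-low cells, a ratio of 221 (61.0 to 1828). Cartpt, the gene of the CART peptide, stood at 6743 ± 3104 CPM in Nts-high cells and 135 ± 227 CPM in Nts-low cells (6.15 ± 0.53, adjusted p = 4.28e-06). Tmem215 had no UMI in Nts-low cells and was at least 20.4-fold higher, and Rasgrp1, a Ras exchange factor, changed by 5.63 ± 0.50. The largest decreases were Unc13c, a vesicle priming factor (-3.71 ± 0.59), Ntng1, an adhesion protein (-3.42 ± 0.63), Otof, a calcium sensor (-3.30 ± 0.68), Luzp2 (-3.15 ± 0.68) and Syt2, a synaptotagmin (-3.05 ± 0.49).

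The lists give the other peptides and receptors of these cells. Of 12 other peptide genes 5 were higher and 1 lower: Crh, the gene of corticotropin-releasing hormone, stood at 457 ± 297 CPM in Nts-high cells and 11.9 ± 17.3 CPM in Nts-low cells (5.25 ± 0.50), and Tac1, the substance P gene, changed by 4.03 ± 0.75. Tac2, the neurokinin B gene, was lower, at 149.9 ± 105.1 CPM in Nts-high cells and 797 ± 497 CPM in Nts-low cells (-2.29 ± 0.47). Of 9 receptors of metabolic signals 5 were higher, among them Mc4r, a melanocortin receptor, at 116.7 ± 54.2 CPM in Nts-high cells and 3.46 ± 8.95 CPM in Nts-low cells (5.40 ± 0.49), Mc3r (2.93 ± 0.57) and Lepr, the leptin receptor (2.87 ± 0.92). Pcsk1, a prohormone convertase (2.23 ± 0.39), and Scg3 (1.28 ± 0.18) were higher and Chga lower (-0.91 ± 0.13) among 10 processing genes. Of 11 GABA genes Isl1 (2.54 ± 0.34) and Dlx1 (1.14 ± 0.29) were higher. Sorcs1 (-2.71 ± 0.77) was the 1 lower of 4 sortilin relatives, Slc17a6 (-2.79 ± 0.75) the 1 lower of 4 identity factors, and 3 of 8 second-messenger genes were higher. None of 7 peptidases was called. Summed astrocyte markers had a median of 397 CPM in Nts-high cells (168 to 511, 6 of 6 detected) and 681 CPM in Nts-low cells (212 to 944, Gfap at 0), and their part in the result was not tested. Nearly all of that sum was Aldoc, at a pooled 400.2 CPM in Nts-high cells and 668 CPM in Nts-low cells. The other markers were each at most 1.06 CPM in Nts-high cells (Slc1a3 and Gja1) and at most 2.67 CPM in Nts-low cells (Aqp4). They went both ways, with Slc1a3 and Gfap higher and Aqp4, Gja1 and Aldh1l1 lower in Nts-high cells.

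Gal-high and Gal-low cells of the GABA class differed in 3.21% of 12287 genes, 2.74% higher and 0.472% lower, and Nts was the 1 called of 4 members tested. Acvr1c had 525 UMIs in Gal-high cells and 1 in Gal-low cells, a ratio of 159 (28.4 to 6283). Diaph3, an actin-nucleating formin, had 312 and 1, a ratio of 94.4 (16.8 to 3739), and Kremen1 had 155 and none, at least 15.6-fold higher. Mt2, a metallothionein (5.03 ± 0.55), and Rasgrp1 (4.92 ± 0.64) followed. The largest decreases were Mpped2 (-4.51 ± 0.78), Lhx1os (-3.81 ± 0.63), Sncg, gamma-synuclein (-3.13 ± 0.52), Mpped1 (-2.78 ± 0.79) and Parva, an adhesion protein (-2.49 ± 0.31). Lhx1, the neighbour of Lhx1os, was lower too (-3.91 ± 0.90), and without strand their reads may not be separable.

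Of 12 other peptide genes Cartpt (4.21 ± 0.45) and Crh (3.73 ± 0.79) were higher in Gal-high cells and Tac2 was lower (-1.64 ± 0.15). Calcr (4.69 ± 0.49), Mc4r (4.60 ± 0.59) and Mc3r (2.23 ± 0.62) were the 3 higher of 9 receptors of metabolic signals. Isl1 (3.02 ± 0.37) and Dlx1 (1.46 ± 0.36) were the 2 higher of 11 GABA genes, and Pcsk1 (2.12 ± 0.45) and Scg3 (1.15 ± 0.22) were higher and Chga lower (-0.88 ± 0.15) among 10 processing genes. Lhx1 was the 1 lower of 4 identity factors, and no sortilin relative, peptidase or second-messenger gene was called. Over 316 single GABA class cells the genes most like Nts were Cartpt (0.80), Serpina3n (0.64), Mt2 (0.62), Vgf (0.60) and Serpine2 (0.60). Those most like Gal were Pcp4 (0.48), Ecel1 (0.47), Cartpt (0.37), Asb4 (0.35) and Mt2 (0.33), and Nts and Gal had a correlation of 0.31.

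Gal divided the Hcrt class with no clear gap. There were 178 Gal-high and 639 Gal-low cells, with 248 between the limits and 50 and 39 cells within 50 CPM below and above the upper one. The limits thus cut a continuous range of values. The median cell had 23.8 CPM of Gal, and whether a Gal-high type exists was not tested. Over 19 plates, in a comparison added after the data were seen, Nts ran from 0 to 574 CPM with a median of 9.85 in Gal-high cells, against 24.1 to 310 CPM with a median of 92.6 in Gal-low cells. The ranges overlapped, and Nts was lower in Gal-high cells on 14 of 19 plates (-1.24 ± 0.60, adjusted p = 0.430). Over 13 other settings the value ran from -2.52 (DESeq2, adjusted p = 0.00591) to -0.12 (no plate block, adjusted p = 0.973), and of these only DESeq2 put it past the threshold. Here 0.772% of 15418 genes were called, 0.0649% higher and 0.707% lower, and none of 4 members tested was called. Leaving out 1 plate gave 46 to 133 called genes. The largest increases were Kcnd2, a potassium channel (1.17 ± 0.25), Oprk1, the kappa opioid receptor (0.60 ± 0.15), Nrsn1 (0.46 ± 0.08), Calb2, calretinin (0.42 ± 0.09), and Pdyn, the dynorphin gene (0.33 ± 0.05). The largest decreases were Gpr83 (-1.28 ± 0.21), Plcb4, a phospholipase C (-1.18 ± 0.29), Mal2 (-1.17 ± 0.23), Spock3 (-1.02 ± 0.24) and Pbxip1 (-0.82 ± 0.19). Scg2 (0.23 ± 0.04) was higher and Pam (-0.32 ± 0.07) and Pcsk1n (-0.15 ± 0.04) lower among 10 processing genes, beside a median of -0.19 over all genes, and Pcsk1n turned to 0.04 with that median taken off, while the median in the DESeq2 fit was -0.0001. Pdyn was the 1 called of 12 peptide genes, Plcb4 the 1 of 8 second-messenger genes, and the other lists had no call. Over single Hcrt class cells the genes most like Gal were Scg2 (0.21), Calb1 (0.15), Arpp21 (0.14), Pdyn (0.13) and Syne2 (0.13).

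The Pmch class had almost no Nts. It ran from 0 to 14.9 CPM with a median of 0 in Pmch class cells, against 58.1 to 320.0 CPM with a median of 114.03 in Hcrt class cells, over 13 plates. The plates did not overlap (-5.03 ± 0.31, adjusted p = 1.01e-20), and no Pmch class cell had more than 3 Nts UMIs. Gal ran from 3.73 to 345 CPM with a median of 78.8 in Pmch class cells, against 68.1 to 147 CPM with a median of 108.6 in Hcrt class cells, and was not called (-0.51 ± 0.43, adjusted p = 0.431). Gal was high in 14 of 68 Pmch class cells, or 20.6% (11.7 to 32.1), and Nts was high in none (exact interval 0 to 5.28%). Of 15479 genes 27.1% were called, 7.18% higher and 19.9% lower, beside a median of -0.41, and 3 of 5 members tested were lower (Nts, Ntsr1, Galr1). This comparison and that of the GABA class use the same Hcrt class cells.

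In the Pmch class Cartpt, at 10302 ± 8081 CPM against 35.2 ± 28.3 CPM in the Hcrt class, and Pnoc were the 2 higher of 13 other peptide genes and 7 were lower. Pth2 had no UMI in Pmch class cells and was at least 30.6-fold lower. Of 10 processing genes 2 were higher, with the convertase gene Pcsk2 at 998 ± 233 CPM in the Pmch class and 161 ± 18.7 CPM in the Hcrt class (2.49 ± 0.09), and 7 lower, with the other convertase gene Pcsk1 at 11.1 ± 14.2 CPM in the Pmch class and 580.4 ± 62.9 CPM in the Hcrt class (-5.72 ± 0.34). With the median of all genes taken off, Pcsk1n (0.01) and Scg5 (0.14) turned sign, while that median was -0.09 in the DESeq2 fit. Prep (1.60 ± 0.41) was higher and Ace (-3.04 ± 0.72) lower among 6 peptidases, and Sorcs1 (-3.01 ± 0.57) was the 1 called of 4 sortilin relatives. Of 6 receptors of metabolic signals 3 were higher and 1 lower, and 2 of 8 second-messenger genes went each way. Gad1 (4.27 ± 0.13) and Isl1 (1.65 ± 0.56) were higher and Gad2 (-3.04 ± 0.54) was lower among 7 GABA genes, and Slc17a6 and Lhx9 were lower among 3 identity factors.

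Ntsr1, the main neurotensin receptor, had its highest level in the Hcrt class. It ran from 0 to 41.4 CPM with a median of 8.36 in the GABA class, against 10.2 to 26.3 CPM with a median of 17.8 in the Hcrt class, over 16 plates. The ranges overlapped, and Ntsr1 was lower in the GABA class on 14 of 16 plates (-1.65 ± 0.33, adjusted p = 6.77e-05). In the Pmch class it ran from 0 to 2.73 CPM and was at 0 on 11 of 13 plates, against 10.3 to 26.3 CPM in the Hcrt class. It had 2 UMIs in Pmch class cells and 594 in Hcrt class cells, a ratio of 33.7 in favour of the Hcrt class (9.30 to 279; adjusted p = 5.51e-08). A UMI was found in 12.2% of GABA class cells, 7.04% of remaining class cells, 2.94% of Pmch class cells and 35.3% of Hcrt class cells. At an equal depth of 10000 UMIs per cell, which left out 11, 4, 0 and 10 shallower cells, the shares were 6.65%, 4.48%, 1.47% and 14.2% in the same order. Of the mean levels, Hcrt 15.8 ± 5.14 CPM, GABA 9.26 ± 10.1 CPM, remaining 4.32 ± 5.62 CPM and Pmch 0.376 ± 0.924 CPM, each overlapped its neighbour over plates.

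Ntsr1 was not called with Nts. In the GABA class it stood at 6.02 ± 4.93 CPM in Nts-high cells and 10.5 ± 12.6 CPM in Nts-low cells (-0.41 ± 0.92, adjusted p = 0.918). In the Hcrt class it stood at 13.6 ± 8.80 CPM in Nts-high cells and 16.4 ± 5.48 CPM in Nts-low cells (-0.45 ± 0.26, adjusted p = 0.342). The ranges overlapped in both, and 52 of 142 Nts-high Hcrt class cells had a UMI of Ntsr1. Against the remaining class the values were 8.01 ± 5.60 CPM in the GABA class and 4.32 ± 5.62 CPM in the remaining class (1.02 ± 1.01, adjusted p = 0.722). With Gal the adjusted p was 0.661 in the GABA class and 0.951 in the Hcrt class.

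Ntsr2 and Galr2 were near the floor of detection. Ntsr2 had 13 UMIs in 4 GABA class cells, 9 of them in 1 cell, none in the remaining and Pmch classes, and 27 UMIs in 20 Hcrt class cells. That is 1.22% of GABA class cells and 1.88% of Hcrt class cells, against 1.94% of the spike-in and empty wells, whose median was 169 UMIs. Galr2 had 1 UMI in the GABA class, 1 in the remaining class, none in the Pmch class and 9 in the Hcrt class. By a limit of 3 counts, these zeros allow a UMI of Ntsr2 in up to 4.23% of remaining class cells and of either gene in up to 4.41% of Pmch class cells, which limits cells with a UMI and not cells that express the gene. Ntsr2 was not called between the GABA and Hcrt classes (0.54 ± 0.87, adjusted p = 0.716) or with Nts in the Hcrt class (0.08 ± 0.96, adjusted p = 0.987).

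Sort1 was found in all classes, at 56.5 ± 42.8 CPM in the remaining, 45.6 ± 27.4 CPM in the GABA, 27.5 ± 15.0 CPM in the Pmch and 17.5 ± 5.83 CPM in the Hcrt class, with overlap at each step. It ran from 0 to 98.1 CPM with a median of 45.3 in the GABA class, against 4.80 to 29.7 CPM with a median of 16.9 in the Hcrt class. It was higher in the GABA class on 14 of 16 plates (0.79 ± 0.25, adjusted p = 0.0136), and the call was lost without replicate 14 (0.63 ± 0.25, adjusted p = 0.0505) and in 3 of 13 other settings. A UMI was found in 34.3% of GABA class cells and 33.2% of Hcrt class cells, and at equal depth in 24.4% (19.7 to 29.5) and 13.6% (11.5 to 15.8).

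Within the Hcrt class Sort1 stood at 25.6 ± 10.2 CPM in Nts-high cells and 15.5 ± 6.03 CPM in Nts-low cells, higher on 15 of 18 plates (0.67 ± 0.22, adjusted p = 0.0463). This call sits at the threshold: it was lost without any 1 of replicates 1, 2, 5, 6, 7, 9, 10, 12, 16, 17 and 18 and in 8 of 13 other settings, and leaving out 1 plate gave sizes of 0.59 to 0.74 and adjusted p of 0.0276 to 0.110. In the GABA class it stood at 37.2 ± 26.4 CPM in Gal-high cells and 91.2 ± 62.4 CPM in Gal-low cells, lower on 10 of 12 plates but not called (-1.12 ± 0.42, adjusted p = 0.139), while DESeq2 (adjusted p = 0.0043) and the fit without the plate block (0.041) put it past the threshold. With Nts it stood at 38.2 ± 32.3 CPM in Nts-high cells and 67.7 ± 49.3 CPM in Nts-low cells (-0.71 ± 0.41, adjusted p = 0.435). The adjusted p was 0.990 for the GABA class against the remaining class, 0.339 for the Pmch class against the Hcrt class and 0.629 with Gal in the Hcrt class.

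**Figure D4:**
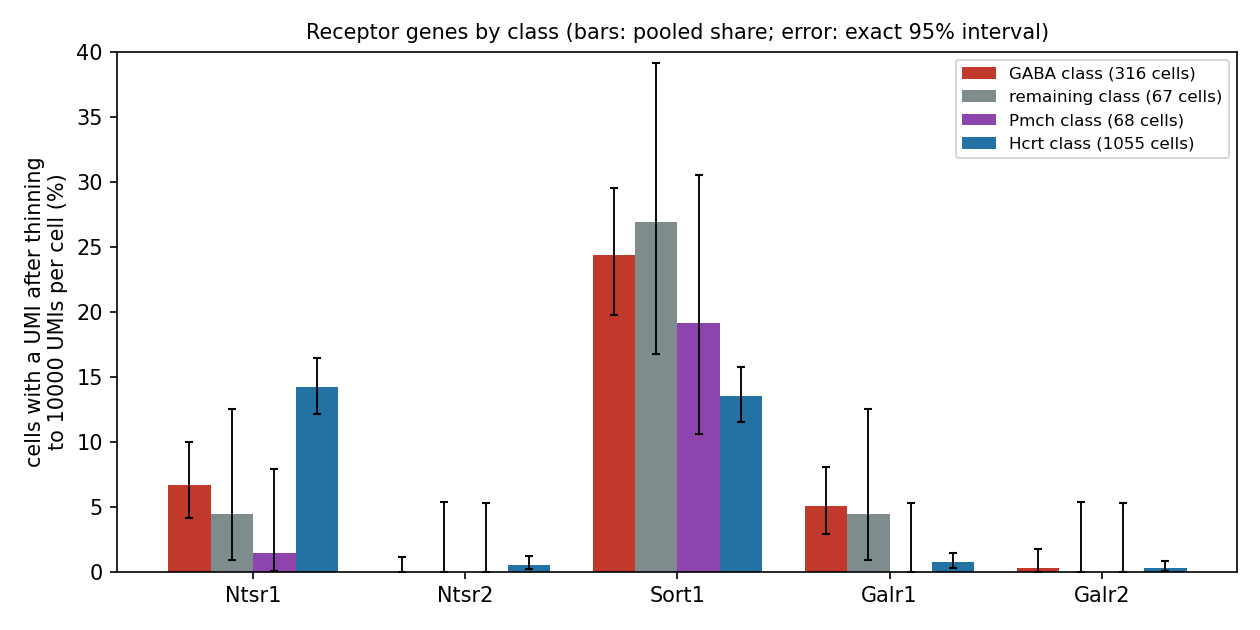
Share of cells with a UMI of each receptor gene after thinning every cell to 10000 UMIs, by class, with exact 95% intervals as error bars. Ntsr1 is at 14.2% in the Hcrt class and 1.47% in the Pmch class, and Galr1 at 5.06% in the GABA class and 0.758% in the Hcrt class.

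Galr1, the Gi-coupled galanin receptor, was rare. It ran from 0 to 17.04 CPM with a median of 4.71 in the GABA class, against 0 to 8.56 CPM with a median of 0.981 in the Hcrt class. The ranges overlapped, with 5 of 16 GABA class plates at 0, and Galr1 was higher in the GABA class on 10 of 16 plates (1.60 ± 0.61, adjusted p = 0.0424). The call was lost without any 1 of replicates 3, 4, 9, 12, 14 and 15 (1.34 to 1.52, adjusted p up to 0.101) and in 6 of 12 other settings. A UMI was found in 7.03% of GABA class cells, 5.63% of remaining class cells, 1.47% of Pmch class cells and 3.19% of Hcrt class cells, and at equal depth in 5.06%, 4.48%, 0 and 0.758% of them. In the Pmch class Galr1 had 1 UMI, against 79 in the Hcrt class, a ratio of 8.98 in favour of the Hcrt class (1.57 to 359; adjusted p = 0.0134, and 0.165 without the plates of prefix Q6).

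Galr1 was not called with either peptide. In the GABA class it stood at 7.20 ± 6.32 CPM in Gal-high cells and 11.6 ± 15.3 CPM in Gal-low cells (-0.14 ± 1.01, adjusted p = 0.970), and at 7.51 ± 8.21 CPM in Nts-high cells and 9.04 ± 15.9 CPM in Nts-low cells (0.58 ± 0.99, adjusted p = 0.881). In the Hcrt class it had 2 UMIs in Gal-high cells and 79 in Gal-low cells, a ratio of 10.3 in favour of Gal-low cells (2.76 to 86.6). The 79 UMIs came from 26 cells, and the interval takes each UMI as independent. The test over plates gave an adjusted p of 0.0668, and of 0.0353 without replicate 5. With Nts in the Hcrt class the adjusted p was 0.579. Against the remaining class Galr1 stood at 7.60 ± 6.90 CPM in the GABA class and 7.99 ± 16.99 CPM in the remaining class, where 8 of 10 plates were at 0 (1.65 ± 1.29, adjusted p = 0.642). It was higher in the GABA class on 6 plates and lower on 2. Here, and with Nts in the GABA class, the mean CPM and the fold change differ in direction, so neither gives a direction.

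The GABA and Hcrt classes also differed in the genes that make and cut peptides. All 10 processing genes were lower in the GABA class, with a median log2 change of -1.33, among them Pcsk1 at 82.0 ± 45.6 CPM in the GABA class and 577 ± 65.2 CPM in the Hcrt class (-3.56 ± 0.17), Pcsk2 (-2.38 ± 0.23) and Scg2 (-3.96 ± 0.06). Of 7 neurotensin-cleaving peptidases Mme, neprilysin (4.66 ± 7.14 CPM in the GABA class and 0.54 ± 0.59 CPM in the Hcrt class), and Ece2 (0.42 ± 0.13) were higher. Sorl1 (0.75 ± 0.12) was higher and Sorcs1 (-1.05 ± 0.31) and Sorcs2 (-1.85 ± 0.49) lower among 4 sortilin relatives, and 1 of 3 other galanin genes could be tested and was not called. Of 14 other peptide genes 7 were higher, with Crh (7.41 ± 0.59), Tac2 (6.96 ± 0.45) and Cartpt (6.94 ± 0.43) as the largest, and 3 lower. Of 10 receptors of metabolic signals 8 were higher, among them Mc4r at 80.2 ± 35.5 CPM in the GABA class and 0.494 ± 0.770 CPM in the Hcrt class (6.61 ± 0.36) and Calcr (6.21 ± 0.28). Of 12 GABA genes 11 were higher, of which Gad1 and Gad2 define the class. Lhx1 (2.86 ± 0.71) was higher and Slc17a6 (-3.52 ± 0.43) and Lhx9 (-6.25 ± 0.25) lower among 5 identity factors, and 3 of 8 second-messenger genes went each way. Summed astrocyte markers, 6 of 6 detected in each class, ran from 316 to 620 CPM in the GABA class and 87.6 to 135 CPM in the Hcrt class, and their part in these values was not tested. Nearly all of that sum was Aldoc, at a pooled 498 CPM in the GABA class and 104.8 CPM in the Hcrt class, with Gja1 next at 1.32 CPM in the GABA class and 0.732 CPM in the Hcrt class.

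Against the remaining class fewer genes of the lists were called. Of 14 other peptide genes 4 were higher, with Crh (5.64 ± 0.60) and Cartpt (5.54 ± 0.75) among them, and 2 lower, with Trh at 1 UMI in the GABA class and 737 in the remaining class. Mc4r (4.71 ± 0.73), Mc3r (4.16 ± 0.88), Calcr (2.84 ± 0.54) and Npy2r (2.79 ± 0.75) were the 4 higher of 9 receptors of metabolic signals. Scg3 (1.24 ± 0.34) was higher and Pcsk2 (-1.80 ± 0.40) lower among 10 processing genes. Of 11 GABA genes 8 were higher, but Gad1 and Gad2 among them separate the classes by definition. Slc17a6, Otp and Lhx9 were the 3 lower of 6 identity factors. No sortilin relative, peptidase or second-messenger gene was called. Summed oligodendrocyte markers, 5 of 5 detected in each class, ran from 64.4 to 876 CPM in the GABA class and 31.7 to 9132 CPM in the remaining class. Precursor markers reached 7.90 CPM in the GABA class and 136 CPM in the remaining class, and mural markers 4.14 and 360 CPM. Both had a median of 0 in the remaining class. Astrocyte markers were higher in the GABA class on 9 of 10 plates. The part of these markers in the values was not tested.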

How the data were processed

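Single cells were picked by hand from the LHA and sequenced with Smart-SCRB, and the authors deposited UMI counts per gene and well with a well table, whose spike-in percent was not used for a result. Per the submitters' processing notes, bcl2fastq 2.20, cutadapt 2.1.0, STAR 2.7.5c, STARsolo 2.7.5c, Seurat 2.3.4 and R 3.4.3 were used with build GRCm38; how UMIs were collapsed, whether strand was used and which annotation was taken are not given in the sources used here. Of 52636 mouse gene identifiers 52403 (99.6%) were found in GENCODE M21. The members and gene lists were chosen with earlier results of these data known.

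UMIs of at least 3 cells per plate and class were summed and tested with edgeR 4.0.16 (limma 3.58.1, R 4.3.3): TMM, robust quasi-likelihood fit, plate as a block because both classes come from the same plate, genes with at least 20 counts in all and a count in at least 3 libraries, Benjamini-Hochberg over all genes, threshold 0.05. Standard errors were derived from the same test. Mean CPM were scaled to raw totals, while fold changes came from the TMM-scaled fit with the plate block, so for genes with few counts the 2 can differ in direction. The block pairs 2 cell classes of 1 plate. High cells had at least 200 CPM and low cells under 50 CPM, and the gene that splits is described, not tested. Shares have exact Clopper-Pearson 95% intervals, and a count of 0 was read as up to 3 counts. Ratios of genes with 3 or fewer UMIs in a group have exact 95% intervals from UMIs pooled over the group, without cells or plates. Named genes were the members, up to 4 called genes per list by size, and, in each split, the 5 largest changes each way among called genes with at least 20 CPM in the higher group and 1 direction in at least 80% of plates. Predicted (Gm, Rik) and mitochondrial genes were not named. For each peptide the 5 most correlated genes were named too. No doublet caller was run on the hand-picked wells. The scripts were tested on simulated data. Alternatives included DESeq2 1.42.0, other filters, limits and totals, no plate block, and leaving out each plate or Q prefix. Python 3.11.15 with numpy 2.4.6, scipy 1.17.1 and pandas 2.3.3 was used. Some genes that the naming rule picks are not reported here.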

Additional observations from a re-analysis of the deposited data

Results flagged for a closer look

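The change of Gal with Nts was larger in the GABA class than in the Hcrt class by 1.55 on the log2 scale (1.55 ± 0.43). This difference between groups was tested directly (edgeR's quasi-likelihood test, adjusted p = 0.0327, 13 plates), in a test chosen after the data were seen. Of the 751 genes called in that test 648, Gal among them, had a positive difference and the others a negative one. The value of 1.55 is measured from 0, not from a median over all genes.

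In the remaining class, 1 plate stood far from the other 9 for 2 of the receptor genes: Ntsr1 was at 16.95 CPM on replicate 11, which is 1 UMI in 3 cells, and Sort1 at 156.1 CPM on replicate 2, which is 7 UMIs in 3 cells. In all 5 groups of gene and class with 4 to 10 plates were compared, and chance marks about 1 in 20.

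A well labelled Empty on replicate 15, outside every comparison, held 701 UMIs of Nts and 127 UMIs of Gal among 100707 UMIs and 5682 genes. It also held 22 UMIs of Gad1, 45 of Gad2, 12 of Slc32a1 and 159 of Hcrt. The spike-in and empty wells with under 1000 genes had at most 1 UMI of Nts or Gal. The 68 wells labelled qRNA, whose content is not given in the sources used here and whose median was 18251 UMIs, held 17 UMIs of Nts in 6 wells, up to 8 in 1 well, and 1 UMI of Gal.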

How the results depend on the processing

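The members' directions and calls were recomputed under each alternative. Nts and Gal in the GABA class against the Hcrt class kept their call in every alternative run (log2 fold change 4.09 to 4.447 and 3.63 to 3.95 over 13 settings). For the GABA class against the remaining class the number of called genes was 37 with filterByExpr, 443 without the replicate block (180 higher, 263 lower) and 72 without prefix Q5. There Nts, at 6.21, was 3.13 (adjusted p = 0.0119) with 20 Gad UMIs and 5.54 (adjusted p = 0.129) and Gal 4.47 (0.289) with at least 5 cells per plate and class, Gal 1.38 (0.178) with 20 Gad UMIs and 5.23 (0.276) without prefix Q5, and Sort1 0.55 without Q5 and -0.20 to 0.24 leaving out 1 plate. In this comparison the limit of 20 Gad UMIs moves GABA class cells below it into the remaining class. For the Pmch class against the Hcrt class 2388 genes were called with filterByExpr and 2350 with at least 5 cells, and Gal was -0.58 (adjusted p = 0.0107) without a filter. With Nts in the GABA class 384 genes were called without prefix Q8, Ntsr1 was 0.40 with 20 Gad UMIs and 0.11 without Q8, and Galr1 -0.19 without the replicate block. With Gal in the GABA class the counts were 169 (filterByExpr), 181 (at least 5 cells), 175 (20 Gad UMIs), 241 (without Q5) and 180 (without Q7), where Nts was 3.29 (adjusted p = 0.131). Galr1 was 0.55 with 20 Gad UMIs, 0.18 with low cells without a UMI, 0.16 without Q5, 0.61 without Q7 and -0.53 to 0.30 leaving out 1 plate. With Nts in the Hcrt class the counts were 795 without Q5 and 862 without Q6, and Gal was -0.86 (adjusted p = 0.0892) with at least 5 cells, -0.95 (0.132) with 500 CPM, and -0.75 (0.094), -1.04 (0.0776) and -0.83 (0.0595) without Q5, Q7 and Q8. With Gal in the Hcrt class the counts were 73 (DESeq2), 29 (filterByExpr), 22 (no replicate block), 70 (at least 5 cells), 65 (500 CPM), 28 (low cells without a UMI), 28, 39, 77 and 30 without Q5, Q6, Q7 and Q8, and 46 to 133 leaving out 1 plate. Nts was -2.52 (adjusted p = 0.00591) there with DESeq2, and Ntsr1 -0.0031 without Q6 and -0.0354 to 0.26 leaving out 1 plate. Ntsr2 ranged from -0.0445 to 0.95 between the GABA and Hcrt classes and from -0.39 to 0.33 with Nts in the Hcrt class when 1 plate was left out. The cause of these differences was not tested. The median of all genes differed between fits. For the GABA class against the remaining class it was 0.38, and 0.06 with DESeq2, 0.12 with filterByExpr and 0.14 without the replicate block. With DESeq2 it was -0.09 for the Pmch class against the Hcrt class and 0.02 with Gal in the GABA class. The difference of Gal between the classes was run in 1 setting. Depth limits Ntsr2, Galr2 and Galr1, which rest on few UMIs.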
